A study of Homo sapiens with 6 samples.

Results

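ATF4 and 9 genes tied to it were followed in LNCaP cells, an established line of androgen-responsive human prostate cancer cells. The genes are the transcription factor ATF4, the amino acid enzymes ASNS, PSAT1 and PHGDH, the stress response genes TRIB3 and CHAC1, and the amino acid transporters SLC7A11, SLC7A5, SLC3A2 and SLC1A5. They were chosen by name, and each probe set annotated to any of them was taken, which gave 16 of the 54613 probe sets tested. Of these 16, 15 are annotated to that gene alone and 1 is shared by PHGDH, MZT2A and MZT2B. Every cell received small interfering RNA (siRNA): 3 single-colour Affymetrix arrays measured total RNA after siRNA to PCARNEQ, a non-coding RNA (siPCARNEQ), and 3 measured it after control siRNA against EGFP, a jellyfish-derived fluorescent protein (siEGFP). The arrays are called 1 to 3 within each group, as numbered in the labels. No siRNA sequence, dose or treatment time could be taken from the labels, and the level of PCARNEQ itself was not analysed here. The labels name no separate cultures, so each p-value rests on the spread between arrays alone, and that spread may be technical.

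ATF4 is translated more when the initiation factor eIF2 is phosphorylated by any of several stress-sensing kinases, which together make up the integrated stress response. It then turns on genes that make or import amino acids, at a DNA element called the C/EBP-ATF response element (CARE). Because much of the control of ATF4 lies in translation and protein stability, its mRNA level on an array is not a measure of its activity. SLC7A11 and SLC7A5 each work as a pair with SLC3A2, the shared heavy chain that brings them to the cell surface. In prostate tumours amino acid import is studied for its part in growth and in the supply of glutathione.

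The core letters of the CARE are what several of these genes share in sequence, so the stretches that hold them are shown before the values. The motif TGATGNAA was searched on both strands of the RefSeq promoters (GRCh38.p14), each running from 250 bases before a transcription start to 50 bases after it. Promoters were matched for 9 of the 10 genes, all but SLC7A11, and these 9 have 17 listed starts. The motif was found at 4 of the 17 starts (23.5%), against 3.62% of all 35116 promoters, and the 4 belong to ASNS, CHAC1, SLC1A5 and SLC3A2. By gene this is 4 of 9, against 4.46% of 27305 genes. The members were chosen as genes tied to ATF4, so their share is a description and not a test. The stretches read 5′ to 3′ on the gene's strand, with the motif in capitals.
ASNS: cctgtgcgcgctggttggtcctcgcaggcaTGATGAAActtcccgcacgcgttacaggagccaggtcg
CHAC1: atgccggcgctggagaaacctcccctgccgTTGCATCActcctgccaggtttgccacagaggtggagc
SLC1A5: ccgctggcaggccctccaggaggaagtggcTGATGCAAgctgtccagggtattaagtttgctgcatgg
The ASNS stretch lies at chr7:97872439-97872506 on the minus strand, with the motif beginning 68 bases before 1 of its 2 starts. The CHAC1 stretch lies at chr15:40953232-40953299 on the plus strand, with the motif on the opposite strand, 209 bases before its start. The SLC1A5 stretch lies at chr19:46784874-46784941 on the minus strand, with the motif 97 bases before 1 of its 3 starts. In SLC3A2 the motif, read on the opposite strand as TTACATCA, begins 38 bases after 1 of its 3 starts (chr11:62881736-62881743, plus strand). A match shows only that these letters are present, and no binding was measured.

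The arrays set limits that touch several members. Arrays 2 and 3 of each group were close to each other, and array 1 lay apart in both: over all probe sets, log2 values of arrays 2 and 3 differed with an SD of 0.13 to 0.14, and those of array 1 differed from either with an SD of 0.23 to 0.37. On siPCARNEQ array 1 the 3′ control probe set of ACTB exceeded the 5′ one by 1.84 on the log2 scale, and by 0.63 to 0.78 on the other 5 arrays. For GAPDH the same difference was 0.26 on that array and -0.14 to -0.03 on the others. Of 6 luminal prostate markers, 4 had a probe set of their own (KLK3, KRT8, KRT18 and FOLH1), and all 4 lay above the array median of 7.03 (log2 intensity) on every array. In siPCARNEQ 3 of these 4 rose, KLK3 by 0.51, KRT8 by 0.70 and KRT18 by 0.45, and FOLH1 had a change of -0.03. Of 12 measured markers of basal, fibroblast, immune and endothelial cells, 3 lay above that median on every array (COL1A1, CD3E and PECAM1) and 5 below it on every array. The summed level of these 12, as a mean per marker, was 6.84 to 6.96 in siPCARNEQ and 6.71 to 6.87 in siEGFP. Among them KRT14 and COL1A1 rose, by 1.02 and 1.11. KRT14 lay at 5.16 to 6.42, below the array median on every array. COL1A1 rose on 3 of its 5 probe sets, and the remaining ones had changes of 0.03 and -0.13. The part of the luminal and other markers in the results was not tested.

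The cystine importer SLC7A11 fell in siPCARNEQ cells on all 3 of its probe sets, and it was the only member whose change passed in both the fit over probe sets and every other setting of the fit over genes. Asparagine synthetase (ASNS) was lower in every siPCARNEQ array on its bright probe set, and this difference passed in the fit over genes but not in the fit over probe sets. ATF4 itself, PHGDH, SLC3A2, SLC1A5 and the brighter TRIB3 probe set had changes within 0.08 on the log2 scale, with intervals given below. SLC7A5 and CHAC1 had higher means in siPCARNEQ that did not pass. With limma and Benjamini-Hochberg adjustment over all 54613 probe sets, at an adjusted p below 0.05, 3 of the 16 member probe sets fell and 0 rose, while 18.5% of all probe sets were called (8.61% fell and 9.92% rose). Before adjustment, limma gave p below 0.05 for 5 that were lower and 1 that was higher. The groups did not overlap in 6 of the 16, 5 with siPCARNEQ below and 1 with it above, where 37.7% of all probe sets did not overlap (19.1% below and 18.6% above). Both shares of members are near the background. The median change was -0.07 over the 16 and -0.01 over all probe sets. A block for the replicate number gave 4 member probe sets that fell and 2 that rose, against 22.9% of all called (10.5% fell and 12.4% rose).

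**Figure D1:**
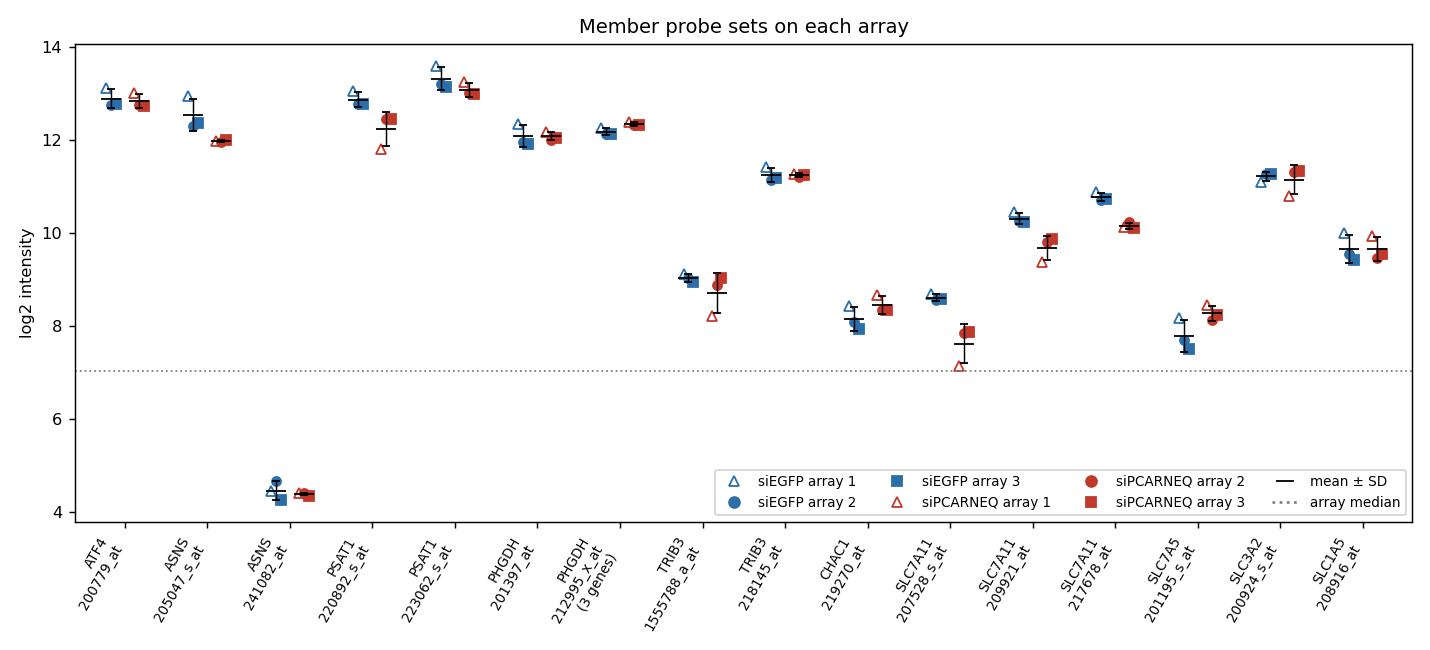
Log2 intensity (vertical axis) of the 16 member probe sets (horizontal axis) on each of the 6 arrays, siEGFP in blue and siPCARNEQ in red, array 1 as open triangles, with the mean and SD of 3 arrays and the array median of 7.03 as a dotted line. All 3 SLC7A11 probe sets, ASNS 205047_s_at and PSAT1 220892_s_at show the siPCARNEQ arrays below the siEGFP arrays, and ASNS 241082_at lies below the array median throughout.

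ATF4 mRNA (probe set 200779_at) stood at 13.00, 12.75 and 12.73 (log2 intensity) in siPCARNEQ arrays 1 to 3 and at 13.12, 12.75 and 12.77 in siEGFP arrays 1 to 3. The groups overlapped, and array 1 was the highest of its group in both. The difference, siPCARNEQ minus siEGFP, was -0.05 (SE 0.13, 95% interval -0.35 to 0.25, limma adjusted p = 0.826, n = 3 arrays per group). By Pearson correlation over the 6 arrays, the genes above the median level whose values followed ATF4 most closely were WASF2, HES6 and LRRC8D (r = 0.99 for each). These 6 points share the contrast between array 1 and arrays 2 and 3, and none of the 3 genes passed between the groups.

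Among the enzymes, ASNS makes asparagine from aspartate and glutamine and is a much used readout of ATF4. Its bright probe set 205047_s_at stood at 11.96, 11.94 and 11.99 in siPCARNEQ and at 12.93, 12.30 and 12.35 in siEGFP. All 3 siPCARNEQ arrays lay within a narrow band below every siEGFP array, and siEGFP array 1 was far above its group. The difference was -0.56 (SE 0.17), with a limma adjusted p of 0.0578 over probe sets and 0.0383 over genes, where ASNS counted as fallen. It was -0.97 in array 1 and -0.36 in arrays 2 and 3, and -0.36 without siEGFP array 1, where it passed over probe sets too (limma adjusted p = 0.0286). With the replicate number as a block it fell over probe sets as well (limma adjusted p = 0.0417). The call over genes was lost without siPCARNEQ array 1, 2 or 3 or siEGFP array 3 (limma adjusted p = 0.0696, 0.0939, 0.0862 and 0.055). It was also lost with arrays 2 and 3 averaged (limma adjusted p = 0.112) and with the mean of both ASNS probe sets (-0.32, limma adjusted p = 0.0538). The other ASNS probe set, 241082_at, lay at 4.24 to 4.67 on all arrays, below the array median throughout.

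PHGDH catalyses the first step of serine synthesis from a glycolytic intermediate, and PSAT1 the next one. PSAT1 probe set 220892_s_at stood at 11.81, 12.45 and 12.45 in siPCARNEQ and at 13.05, 12.76 and 12.77 in siEGFP. The groups did not overlap, and siPCARNEQ array 1 was far below the other arrays. The difference was -0.63 (SE 0.19, limma adjusted p = 0.0612), made up of -1.24 in array 1 and -0.32 in arrays 2 and 3. Without siPCARNEQ array 1 it was -0.41 and passed (limma adjusted p = 0.0282). With any other single array left out it did not pass (limma adjusted p = 0.0679 to 0.182).

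The brighter PSAT1 probe set 223062_s_at had a smaller difference of -0.24 (SE 0.14, limma adjusted p = 0.309), with values of 13.23, 13.00 and 12.97 in siPCARNEQ and 13.59, 13.20 and 13.14 in siEGFP. Its groups overlapped, although each siPCARNEQ array lay below the siEGFP array of the same number. In the fit over genes with the replicate block, this probe set counted as fallen (limma adjusted p = 0.0437), and so did the mean of both probe sets without the block (-0.43, limma adjusted p = 0.0294). Over probe sets with the block, neither PSAT1 probe set passed (limma adjusted p = 0.0829 for each). Without siEGFP array 1 the difference of 223062_s_at was -0.099 and did not pass (limma adjusted p = 0.623). PHGDH probe set 201397_at ranged from 12.00 to 12.16 in siPCARNEQ and from 11.91 to 12.35 in siEGFP. Its difference was close to 0 (interval -0.31 to 0.30, limma adjusted p = 0.991). The shared probe set 212995_x_at, which cannot be read as PHGDH alone, was higher by 0.17 and did not pass (limma adjusted p = 0.177).

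TRIB3 is a pseudokinase that ATF4 induces and that restrains AKT and ATF4 in turn. Its brighter probe set 218145_at ranged from 11.19 to 11.27 in siPCARNEQ and from 11.14 to 11.41 in siEGFP, with a difference of -0.01 (interval -0.23 to 0.21, limma adjusted p = 0.971). The dimmer one, 1555788_a_at, stood at 8.22, 8.88 and 9.03 in siPCARNEQ and at 9.11, 9.02 and 8.93 in siEGFP. The low mean in siPCARNEQ came from array 1: the difference was -0.89 there and -0.02 in arrays 2 and 3.

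CHAC1 breaks down glutathione and is among the genes most responsive to ATF4. It stood at 8.66, 8.33 and 8.34 in siPCARNEQ and at 8.42, 8.08 and 7.92 in siEGFP (219270_at). The groups overlapped, yet each siPCARNEQ array lay above the siEGFP array of the same number. The difference was 0.30 (SE 0.15, interval -0.06 to 0.66, limma adjusted p = 0.240), and CHAC1 counted as risen with the replicate number as a block (limma adjusted p = 0.0432). The difference was 0.19 without siPCARNEQ array 1 and 0.19 without siEGFP array 3, and passed in neither (limma adjusted p = 0.392 and 0.534).

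SLC7A11 imports cystine in exchange for glutamate and so feeds glutathione synthesis. Its probe set 217678_at stood at 10.11, 10.22 and 10.10 in siPCARNEQ and at 10.88, 10.70 and 10.72 in siEGFP. Every siPCARNEQ array was lower than every siEGFP array, by more than the spread within either group. It fell by 0.62 (SE 0.08, interval -0.82 to -0.43, limma adjusted p = 0.0026), which is 1.54-fold lower, with -0.76 in array 1 and -0.55 in arrays 2 and 3.

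The other SLC7A11 probe sets fell too. Probe set 207528_s_at stood at 7.13, 7.84 and 7.86 in siPCARNEQ and at 8.68, 8.56 and 8.57 in siEGFP, a difference of -0.99 (SE 0.19, limma adjusted p = 0.013). Probe set 209921_at stood at 9.36, 9.79 and 9.85 against 10.45, 10.24 and 10.22, a difference of -0.63 (SE 0.14, limma adjusted p = 0.0232). In both, siPCARNEQ array 1 was the lowest of all arrays, the array with the high ACTB difference given above, and the part of that in the size of the fall was not tested. Without that array the differences were -0.75 and -0.48, and both passed. Without siEGFP array 1, 2 or 3, 207528_s_at had limma adjusted p = 0.0543, 0.0508 and 0.0522, and 209921_at 0.0825, 0.0714 and 0.0654, so neither passed. When arrays 2 and 3 of a group were averaged into a single replicate, none of the 3 probe sets passed over probe sets (limma adjusted p = 0.0542 to 0.114), and 217678_at passed over genes (limma adjusted p = 0.0259).

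SLC7A5 is the main importer of leucine and other large neutral amino acids. It stood at 8.45, 8.12 and 8.23 in siPCARNEQ and at 8.17, 7.69 and 7.49 in siEGFP (201195_s_at). The groups overlapped, since siEGFP array 1 lay above siPCARNEQ array 2. The difference was 0.48 (SE 0.18, interval 0.06 to 0.91, limma adjusted p = 0.116). It counted as risen with the replicate number as a block (limma adjusted p = 0.0285) and without siEGFP array 1 (0.68, limma adjusted p = 0.0233). Without any other single array it was 0.34 to 0.56 and did not pass (limma adjusted p = 0.141 to 0.312). It did not pass with arrays 2 and 3 averaged either (limma adjusted p = 0.383). Its direction was opposite to that of SLC7A11, which uses the same heavy chain, but the SLC7A5 change did not pass in the main fit.

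SLC3A2, the heavy chain, stood at 10.78, 11.31 and 11.32 in siPCARNEQ and at 11.09, 11.27 and 11.27 in siEGFP (200924_s_at). Array 1 was the lowest of each group, and the difference was -0.07 (interval -0.44 to 0.30, limma adjusted p = 0.811), or 0.11 without siPCARNEQ array 1. SLC1A5, an exchanger of glutamine and other neutral amino acids, ranged from 9.46 to 9.93 in siPCARNEQ and from 9.42 to 9.98 in siEGFP (208916_at). Its difference of -0.01 had an interval from -0.44 to 0.42 (limma adjusted p = 0.987).

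**Figure D2:**
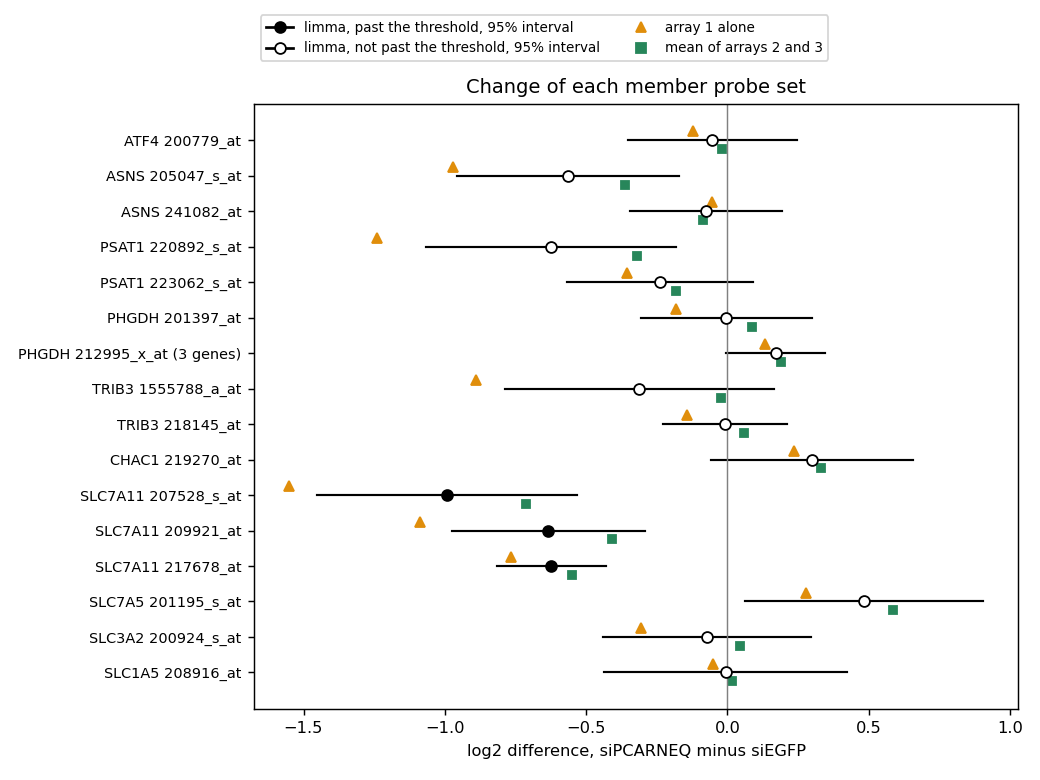
Log2 difference, siPCARNEQ minus siEGFP (horizontal axis), for each member probe set (vertical axis): circles and bars give the limma estimate and 95% interval over 3 arrays per group, filled where the adjusted p over all probe sets is below 0.05, triangles give array 1 alone and squares the mean of arrays 2 and 3. The 3 filled circles are the SLC7A11 probe sets, and in PSAT1 220892_s_at and TRIB3 1555788_a_at array 1 lies far left of arrays 2 and 3.

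The rest of the pathway was read from 5 lists with 54 measured genes, each gene by its brightest probe set. Genes of these lists moved in both directions: 11 rose, 9 fell and 34 did not pass, a median change of -0.04 against -0.01 over all genes. Of all 19775 genes 27.5% were called (15.2% rose and 12.3% fell). The groups did not overlap in 24 of the 54 genes, against 44% of all genes. By the same measure 2 of the 10 members fell, SLC7A11 and ASNS, and 0 rose (limma gave 1 higher with p below 0.05 before adjustment). A block for the replicate number gave 3 members that fell and 2 that rose, where 34.6% of all genes were called.

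Of 7 sensors and feedback genes of the integrated stress response, 2 rose and 2 fell. EIF2AK3, the kinase PERK that senses stress in the endoplasmic reticulum, stood at 11.58, 11.85 and 11.86 in siPCARNEQ and at 10.13, 10.33 and 10.32 in siEGFP. It rose by 1.50 (SE 0.10, limma adjusted p = 0.000115), far beyond the spread within groups. Its other probe set, 241463_at, lay at 4.91 to 5.10, below the array median on every array, and had a change of -0.05. EIF2AK4, the kinase GCN2 that senses uncharged tRNA, rose by 0.65 (SE 0.14, limma adjusted p = 0.0118). The EIF2AK4 difference was 1.01 in array 1 and 0.48 in arrays 2 and 3. Its other probe set, 237145_at, was higher by 0.64 and did not pass over probe sets (limma adjusted p = 0.053). EIF2AK2, the kinase PKR that senses double-stranded RNA, fell by 0.43 (SE 0.07) on 1 of its 3 probe sets, and PPP1R15B, which targets a phosphatase to eIF2, fell by 0.65 (SE 0.09). With arrays 2 and 3 averaged, EIF2AK4 and EIF2AK2 did not pass (limma adjusted p = 0.0613 and 0.0574).

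Of 7 ATF and C/EBP partners, 3 rose and 1 fell. DDIT3, the transcription factor CHOP, stood at 10.17, 10.28 and 10.33 in siPCARNEQ and at 9.57, 9.65 and 9.58 in siEGFP, and rose by 0.66 (SE 0.07, limma adjusted p = 0.000686). JDP2, a repressor of the AP-1 family, rose by 0.90 (SE 0.11) on 1 of its 2 probe sets, and the stress protein NUPR1 by 0.58 (SE 0.11). The other JDP2 probe set lay at 5.93 to 6.28, below the array median on every array. ATF5 fell by 0.65 (SE 0.18, limma adjusted p = 0.0344) in the fit over genes. That probe set did not pass over probe sets (limma adjusted p = 0.0521), and fell there with the replicate block (limma adjusted p = 0.00778). Over probe sets without the block, 1 of the other 3 ATF5 probe sets fell and the remaining ones had changes of -0.10 and -0.01. The ATF5 call was lost without siPCARNEQ array 2 or 3 or any siEGFP array (limma adjusted p = 0.0627 to 0.109). With arrays 2 and 3 averaged, neither ATF5 nor NUPR1 passed (limma adjusted p = 0.163 and 0.0933).

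Of 12 measured other ATF4 targets, 1 rose, 2 fell and 9 did not pass, with a median of -0.18. With the replicate number as a block, 4 fell. GCLM and ALDH1L2, named after their values were seen, did not pass on their brightest probe sets (-0.19 and -0.02). Over probe sets, the other 2 of GCLM fell, by 0.80 and 0.52 (limma adjusted p = 0.0186 and 0.00579). Of the 3 ALDH1L2 probe sets 1 rose, by 0.30 (limma adjusted p = 0.0262), and it lay at 3.49 to 3.88, below the array median on every array. CHAC2, a relative of CHAC1 that also breaks down glutathione, stood at 10.31, 10.80 and 10.74 in siPCARNEQ and at 11.44, 11.58 and 11.49 in siEGFP, and fell by 0.89 (SE 0.13, limma adjusted p = 0.00263). CHAC2 and CHAC1 thus had values on opposite sides of 0, and the change in CHAC1 did not pass. CTH, which makes cysteine from cystathionine, fell by 0.46 (SE 0.12), and its call was lost without siPCARNEQ array 1 or 3 or siEGFP array 2 (limma adjusted p = 0.0594, 0.0914 and 0.0553) and with arrays 2 and 3 averaged (limma adjusted p = 0.094). The secreted factor GDF15 rose by 0.61 (SE 0.12) on its brightest probe set, whereas its other 2 probe sets had changes of -0.18 and -0.19. Those 2 were dim, at 5.83 to 6.81, below the array median on every array. GDF15 did not pass with the mean of its probe sets (0.081, limma adjusted p = 0.550) or with arrays 2 and 3 averaged (limma adjusted p = 0.0754). DDIT4, an inhibitor of mTORC1, was higher by 0.38 and just missed the threshold over genes (limma adjusted p = 0.0504, and 0.0758 over probe sets). The difference was 0.05 in array 1 and 0.54 in arrays 2 and 3. DDIT4 passed over genes without siEGFP array 1 (0.51, limma adjusted p = 0.00602).

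Of 8 enzymes of serine, glycine, proline and one-carbon metabolism, 1 rose and 0 fell (limma gave 1 lower with p below 0.05 before adjustment, and 1 fell with the replicate block). ALDH18A1, which starts proline synthesis, rose by 0.42 (SE 0.11, limma adjusted p = 0.0258), a call that was lost without siEGFP array 1, 2 or 3 (limma adjusted p = 0.0565, 0.0887 and 0.089) and with arrays 2 and 3 averaged (limma adjusted p = 0.114). MTHFD2, a mitochondrial folate enzyme, had a change of -0.34 (limma adjusted p = 0.0999) and counted as fallen with the block (limma adjusted p = 0.0143). Without siEGFP array 1 it was -0.20 (limma adjusted p = 0.197). SHMT1 and PYCR1 had changes of -0.13 and 0.14 that did not pass.

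The largest falls in the lists were in amino acid transporters, of which 4 rose, 4 fell and 12 did not pass. SLC38A2, a sodium-coupled importer of small neutral amino acids that is induced when amino acids are short, stood at 12.28, 12.46 and 12.47 in siPCARNEQ and at 13.71, 13.70 and 13.71 in siEGFP. It fell by 1.30 (SE 0.08, limma adjusted p = 7.2e-05), and all 3 of its probe sets fell. SLC36A4, an amino acid carrier related to the proton-coupled transporters, fell by 1.29 (SE 0.10, limma adjusted p = 0.00017).

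SLC7A8, another light chain that pairs with SLC3A2, stood at 11.21, 11.03 and 11.05 in siPCARNEQ and at 9.95, 10.11 and 9.92 in siEGFP. It rose by 1.10 (SE 0.09, limma adjusted p = 0.000184) on its brightest probe set and on 1 of the other 4. Without _x_at, _s_at and _a_at probe sets, its change was -0.043 and did not pass. The taurine transporter SLC6A6 rose by 0.75 (SE 0.08) on 1 of its 5 probe sets, and the mean of the 5 had a change of 0.03. The other 4 transporters that passed, named after their values were seen, were SLC38A1 (-0.49), SLC1A3 (-1.05), SLC1A4 (0.54) and SLC43A2 (0.44). SLC1A4 did not pass without siEGFP array 2 (limma adjusted p = 0.051), and SLC43A2 did not pass without siPCARNEQ array 2 or 3 or siEGFP array 2 or 3 (limma adjusted p = 0.05003 to 0.0742). By the mean of its probe sets SLC1A4 had a change of 0.25 (limma adjusted p = 0.0614), and without _x_at, _s_at and _a_at probe sets one of 0.067 (limma adjusted p = 0.629). With arrays 2 and 3 averaged none of these 4 passed: SLC38A1 and SLC1A3 had limma adjusted p = 0.0562 and 0.0522, and SLC1A4 and SLC43A2 had 0.102 and 0.157.

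**Figure D3:**
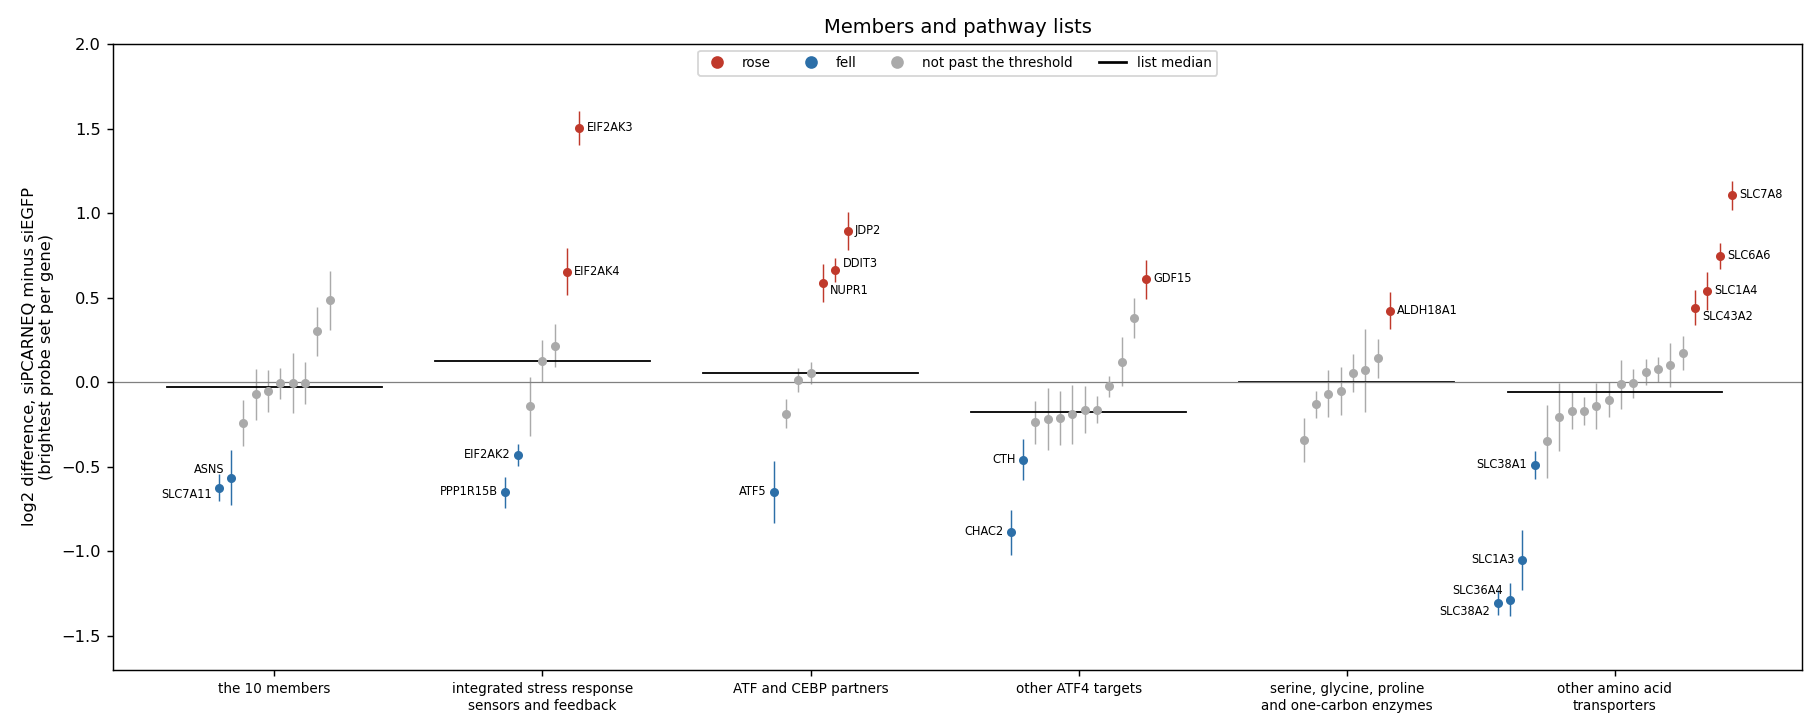
Log2 difference, siPCARNEQ minus siEGFP (vertical axis), of the 10 members and of the genes in 5 pathway lists (horizontal axis), each by its brightest probe set, with the limma standard error over 3 arrays per group and the list median as a black line. Red genes rose and blue genes fell at an adjusted p below 0.05 over all genes, and each list but the members holds at least 1 gene that rose.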

How the data were processed

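The authors deposited 1 intensity value per probe set and array on a linear scale. Per the submitters' processing notes the tool was RMA, which corrects background, normalizes by quantiles and summarises probes, and its version was not found. All 6 arrays share 1 distribution (median 130.8), so a change in total RNA cannot be seen. Log2 was taken without a pseudocount. Of 54675 probe sets, 62 controls were left out. GEO's platform annotation paired 41091 of the rest with 1 gene, 1801 with several and 11721 with none, and gene identifiers were compared with RefSeq. In the fit over genes, each of 19775 genes was read from its brightest probe set by mean of the 6 arrays.

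The main comparison used limma 3.58.1 (lmFit, eBayes; R 4.3.3), 2-sided, without covariates, over all probe sets or all genes, at a Benjamini-Hochberg adjusted p below 0.05, and the code was tested on simulated data. Figures used matplotlib 3.10.9 in Python 3.11.15. The number of arrays limits the precision. Members and lists were chosen with earlier results of these data known. All probe sets of members were named, with up to 4 genes of smallest p per list and the 3 genes most like ATF4.

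Replicate numbers are shared by the groups in the labels. Deviations from group means correlated at 0.47, 0.30 and 0.34 for the same numbers, all above 0.1, so the numbers were taken as pairs, although no label states a shared batch. This lay mainly between array 1 and the others, since arrays 2 and 3 correlated across numbers too (0.37 and 0.24). At 0.37, siPCARNEQ array 2 followed siEGFP array 3 more closely than siEGFP array 2 (0.30). These values therefore do not settle how arrays 2 and 3 pair. Alternatives were the replicate block, a filter below the median, further quantile normalization, median centring, log2 of intensity plus 16, a trended and robust eBayes, leaving out each array, averaging arrays 2 and 3, arrays 2 and 3 alone, other probe set choices per gene and a fixed motif.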

Additional observations from a re-analysis of the deposited data

How the results depend on the processing

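Of the 2 members and 20 list genes called over genes, SLC7A11 and 7 list genes (CHAC2, DDIT3, EIF2AK3, JDP2, PPP1R15B, SLC36A4 and SLC38A2) stayed called under every setting that could be run for them, and SLC38A2 has no probe set left without names ending in _x_at, _s_at or _a_at. The 3 member probe sets that fell became 5 without dim probe sets, 5 in arrays 2 and 3 alone, 0 with arrays 2 and 3 averaged and 1 to 4 with 1 array left out. The 0 that rose became 2 with the replicate block, 3 in arrays 2 and 3 alone and 0 to 1 with 1 array left out. Over genes, the 2 members that fell became 1 with arrays 2 and 3 averaged, 1 without _x_at, _s_at and _a_at probe sets and 1 to 2 with 1 array left out, and the 0 that rose became 2 with the replicate block, 2 in arrays 2 and 3 alone and 0 to 1 with 1 array left out. In the lists, the 11 that rose became 5 and the 9 that fell became 4 with averaging, where 9 of the 20 list genes stayed called. The 11 became 7 without those probe sets, and the 9 became 16 in arrays 2 and 3 alone. Shares of all probe sets or genes called are given here only for the main fit and the replicate block. The shifts in these counts under the other settings therefore cannot be read as particular to the members or lists. In the fit over genes, the pairing of arrays by number, as a block, changed no other call of a named gene than those given with the results.

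Small differences changed sign without passing. With 1 array left out, ATF4 ranged from -0.14 to 0.064, ASNS 241082_at from -0.18 to 0.032, TRIB3 218145_at from -0.059 to 0.078, PHGDH 201397_at from -0.081 to 0.13, SLC3A2 from -0.16 to 0.11 and SLC1A5 from -0.15 to 0.16. In arrays 2 and 3 alone, TRIB3 218145_at, PHGDH 201397_at, SLC3A2 and SLC1A5 were at 0.060, 0.087, 0.046 and 0.016. Without _x_at, _s_at and _a_at probe sets, GDF15 and SLC7A8 had changes of -0.18 and -0.043 and did not pass, and with the mean of all probe sets SHMT1 had 0.020. The fixed motif TTGCATCA was found in 2 members, CHAC1 and SLC1A5, in place of 4, and in 0.866% of all promoters. The cause of these shifts was not tested.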
